A study of Mus musculus with 15 samples.

Results

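Transcripts bound to EGFP-tagged ribosomes of KI198Cre cells were compared with transcripts of the whole ventral dentate gyrus (vDG) in wildtype (WT) mice. The comparison used every library titled WT_vDG_TRAP_IP (3) and WT_vDG_Input (3), which is 6 of the 15 libraries of the series, and all genes were eligible: of 32657 features counted, 21740 had a read in at least 1 of the 6 libraries and 15011 were tested. The study asked how loss of the serotonin receptor *Htr4* in hippocampal cells changes gene expression, and the WT pair of groups asks which transcripts mark the tagged cells. Both groups came from Drd3-Cre KI198::Rosa26-fsTRAP mice aged 8 to 12 weeks on a C57BL/6J background, with intact *Htr4*, so the inputs also carried the Cre and the EGFP-L10a allele. Cre in this line is driven by a *Drd3* transgene, and the sample records place EGFP-L10a in granule cells of the granule cell layer and in mossy cells of the hilus. The records give 3 mice per IP pool and 2 per input pool, whereas the methods give 1 male and 1 female mouse per pool. In the records the source field of the inputs names cortex, while their titles and region fields name the ventral dentate gyrus, which was taken as the tissue. By the methods, input RNA came from a fraction of the supernatant set aside before the IP, so inputs and IPs can share tissue, and which input belongs to which IP is not given in the records. The p-values below treat the 6 libraries as separate samples and measure only the spread between them. The same contrast in 2 IPs and 2 inputs of conditional *Htr4* knockouts (cKO: Drd3-Cre KI198::Htr4-Floxed crossed to Rosa26-fsTRAP::Htr4-Floxed) is given beside it as a second set of libraries.

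Translating ribosome affinity purification (TRAP) expresses the ribosomal protein L10a fused to EGFP in cells that carry Cre, and an antibody to EGFP then pulls down the tagged ribosomes together with the mRNAs they are translating. The dentate gyrus is the entry stage of the hippocampal circuit. Its principal neurons are glutamatergic granule cells, which send mossy fibers to CA3, and its hilus holds glutamatergic mossy cells and several kinds of GABAergic interneurons, all among astrocytes, oligodendrocytes, microglia and blood vessels. An IP is meant to hold ribosome-bound RNA of the tagged cells, while an input holds RNA of all cells of the dissected tissue, tagged cells included.

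The 6 libraries held 24600051 to 28098245 reads on features. Levels are given as CPM, the counts scaled by library total and TMM factor. A gene was called enriched when its false discovery rate (FDR, the Benjamini-Hochberg adjusted p of the quasi-likelihood test of edgeR over all genes tested) was under 0.05 and it was at least 25% higher in the IPs, and depleted when its FDR was under 0.05 and its IP level was under 0.5 of the input level. These thresholds are those of the study's methods. The ribosomal RNA feature *Rn45s* took 5.67% to 10.8% of the reads on features in the IPs and 4.04% to 7.29% in the inputs. Reads outside any feature made up 11.3% to 12.1% of the IP records and 15.6% to 16.0% of the input records, and reads on overlapping features made up 2.55% to 2.75% and 6.47% to 7.90%. Both shares were higher in every input than in every IP.

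The IP and the whole tissue differed in both directions, with mild enrichments and with depletions that were more numerous and deeper. Of 15011 genes, 1159 were enriched (7.72%) and 1711 were depleted (11.4%). The enriched genes had a median fold of 1.43 and 29 of them reached 2-fold, whereas the depleted genes had a median fold of 5.03 (input over IP) and 521 of them reached 8-fold. The log2 fold change of all genes tested had a median of 0.00, with quartiles of -0.41 and 0.25. These counts depended on scaling and on single pools. When library size alone was used for scaling, the median of all genes moved to -0.13 and the counts were 487 enriched and 1917 depleted. The enriched count was 588 without input 1, 749 without input 3 and 765 without IP 2. In bulk RNA of this kind, fewer cells of a type and less RNA per cell cannot be told apart.

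The endogenous genes of the tagged protein and of the driver were not enriched, while reads of the EGFP-L10a and Cre transgenes were not analysed here. *Rpl10a*, the endogenous gene of the protein that carries the tag, stood at 118, 115 and 108 CPM in the IPs and at 112, 147 and 138 CPM in the inputs, and the groups overlapped (log2 fold change -0.22, SE 0.13, FDR 0.242 by edgeR). *Drd3*, the dopamine receptor gene whose regulatory sequence drives Cre but whose expression the line reproduces only in part, was covered by 20, 19 and 36 reads in the IPs and by 36, 21 and 20 reads in the inputs. Its log2 fold change was 0.01 (SE 0.44, FDR 0.987), so at this depth no difference was detectable for *Drd3*, and its sign turned under several alternatives. *Htr4*, the receptor gene that is floxed in the cKO mice, was at 13.3, 15.6 and 15.0 CPM against 14.7, 18.6 and 13.8 CPM, which also overlapped (log2 fold change -0.10, SE 0.16, FDR 0.70).

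The 12 most enriched genes with at least 5 CPM and no overlap between groups held no member of the cell identity lists. *Dync1h1*, the heavy chain of the cytoplasmic dynein motor (chr12:110601452-110666945, mm10), was at 687, 1010 and 1394 CPM in the IPs and at 252, 517 and 241 CPM in the inputs. The fold was 3.06 (log2 fold change 1.61, SE 0.28, FDR 0.000783). Next came a feature named by its GenBank clone, AK220016, at 7.08 to 8.89 CPM in the IPs and 2.54 to 3.10 CPM in the inputs (2.95-fold, FDR 8.89e-05). *Prpf8*, a core protein of the spliceosome, was at 498, 514 and 586 CPM against 168, 260 and 210 CPM (2.51-fold, FDR 2.08e-05). *Ubr3*, a ubiquitin ligase, was at 419, 413 and 468 CPM against 163, 205 and 170 CPM (2.41-fold, FDR 4.97e-06). Lack of overlap between the groups was a condition for being named here, so it is no finding about these 4 genes. Of the 4, *Dync1h1* varied most between pools of a group.

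The remaining 8 of the 12 most enriched genes with at least 5 CPM had folds between 1.99 and 2.09. *Kalrn*, an exchange factor for small GTPases in dendritic spines (chr16:33969073-34573532), was at 1134, 1133 and 1165 CPM in the IPs and 518, 608 and 519 CPM in the inputs (2.09-fold, FDR 1.11e-05). *Ryr2*, the ryanodine receptor that releases calcium from intracellular stores, was at 809, 919 and 995 CPM against 403, 514 and 425 CPM (2.03-fold, FDR 5.83e-05). For both, as for all 12, lack of overlap was a condition of the choice. The other 6 were *Ubr4*, a second ubiquitin ligase (2.04-fold), *Hivep2*, a zinc finger transcription factor (2.04-fold), *Fry*, a large protein of cell morphogenesis (2.03-fold), *Snrnp200*, a helicase of the spliceosome (2.0-fold), *Tro*, which encodes trophinin (2.0-fold), and *Fasn*, fatty acid synthase (1.99-fold), with edgeR FDRs from 4.19e-05 to 0.00387. All 12 were also called enriched in the cKO libraries.

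**Figure D1:**
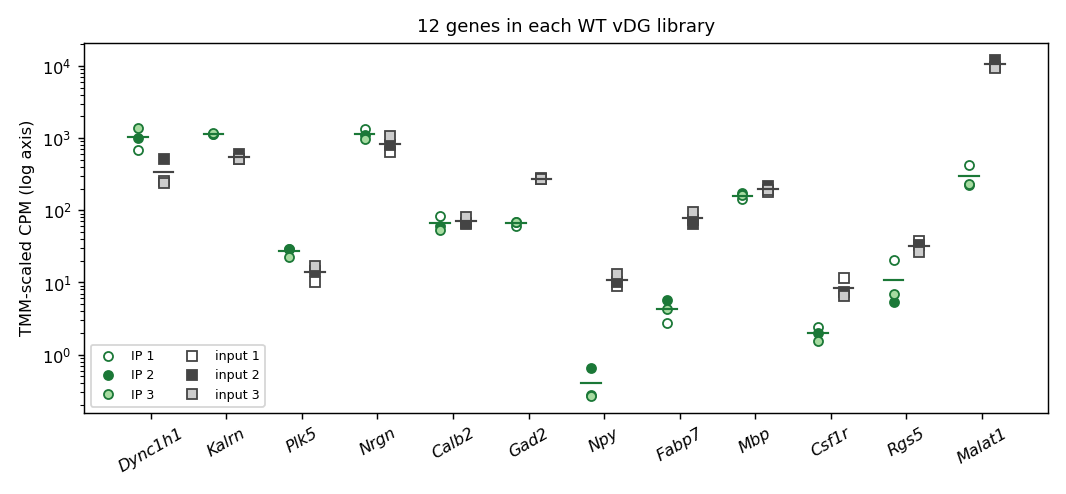
TMM-scaled CPM (log axis) of 12 genes in each WT vDG library, with circles for the 3 IPs, squares for the 3 inputs and short lines at the group means. *Dync1h1*, *Kalrn* and *Plk5* lay higher in every IP, *Gad2*, *Npy*, *Fabp7*, *Csf1r*, *Rgs5* and *Malat1* lay lower in every IP, *Mbp* lay slightly lower without a call, and *Nrgn* and *Calb2* overlapped.

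Among cell types, granule cell genes were the only identity list with more enriched than depleted members apart from the CA pyramidal list, where 1 gene was called. Of 13 granule cell genes, all tested, 5 were enriched and 1 was depleted, against 7.72% and 11.4% of all genes, with a median log2 fold change of 0.46 against 0.00 over all genes (0.33 when library size alone was used). *Plk5*, a kinase-like protein of granule cells (chr10:80356459-80365489), was at 29.1, 29.2 and 22.8 CPM in the IPs and 10.1, 14.3 and 17 CPM in the inputs (1.96-fold, FDR 0.00185). *Dock10*, an exchange factor for Rac and Cdc42, was at 280, 348 and 406 CPM against 162, 239 and 181 CPM (1.78-fold, FDR 0.00201). *Dsp* (desmoplakin, 1.64-fold, FDR 0.0241), *C1ql2* (a secreted complement-like protein of mossy fiber synapses, 1.51-fold, FDR 0.00438) and *Grm2* (a presynaptic glutamate receptor of mossy fibers, 1.43-fold, FDR 0.00894) were the other 3, of which *Dsp* lost its call without IP 2 (log2 fold change 0.67) or input 3 (0.47). For each of the 5, every IP lay above every input, as for 2442 of the 15011 genes tested.

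The other 8 granule cell genes were not enriched. *Prox1*, the transcription factor that defines granule cells, was at 644, 747 and 832 CPM against 658, 730 and 625 CPM (log2 fold change 0.14, SE 0.13, FDR 0.442), and the groups overlapped. *Nrgn*, neurogranin, had the most reads of the list, at 1353, 1117 and 978 CPM against 651, 800 and 1061 CPM (log2 fold change 0.46, SE 0.17, FDR 0.0644). It passed the FDR without IP 3 (FDR 0.0137) and without input 3 (FDR 0.0139). *Glis3*, a Krüppel-like zinc finger factor, was depleted at 51.2, 48.1 and 51.5 CPM against 113, 87.6 and 106 CPM, and its fold of 0.492 lay just inside the limit of 0.5, so that the call was lost without IP 2 (log2 fold change -0.98), input 1 (-0.93) or input 3 (-0.99). The summed level of the list was 3406 to 3560 CPM in the IPs and 2617 to 2951 CPM in the inputs, without overlap.

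Mossy cell genes did not mark the IP, although the records list mossy cells among the tagged cells. Of 10 mossy cell genes 0 were enriched and 1 was depleted, against 7.72% and 11.4% of all genes, the median log2 fold change was -0.28 (-0.17 without input 3 and -0.41 when library size alone was used), and the summed levels overlapped at 164 to 189 CPM in the IPs and 161 to 186 CPM in the inputs. *Calb2*, the calcium-binding protein calretinin, which in the mouse marks hilar mossy cells and also some interneurons, was at 82.6, 60.9 and 53.4 CPM against 65.8, 64.0 and 81.7 CPM (log2 fold change -0.10, SE 0.16, FDR 0.692). *Calcrl*, a receptor subunit for calcitonin family peptides that endothelial cells also express, was the depleted member at 4.76, 2.01 and 3.88 CPM against 7.79, 8.79 and 10.4 CPM (log2 fold change -1.34, SE 0.27, FDR 0.00227). *Drd2*, the dopamine receptor used as a mossy cell marker, was at 2.09 to 2.55 CPM against 2.24 to 3.97 CPM (log2 fold change -0.46, FDR 0.26).

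CA pyramidal cell genes lay near the median of all genes. Of 14 listed genes, 12 were tested, 1 was enriched and 0 were depleted, against 7.72% and 11.4% of all genes, with a median log2 fold change of 0.03 that turned to -0.11 when library size alone was used. Without 1 pool at a time the median was 0.12 (IP 1), -0.03 (IP 2), 0.10 (IP 3), -0.01 (input 1), 0.11 (input 2) and 0.05 (input 3). The enriched gene was *Rgs14*, a regulator of G protein signaling known from CA2, at 26.5, 32.0 and 22.2 CPM against 17.1, 15.9 and 16.1 CPM (1.64-fold, FDR 0.00443). *Wfs1*, a CA1 marker, was at 30.2 to 33.2 CPM against 24.4 to 32.8 CPM (log2 fold change 0.14, FDR 0.51).

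Interneuron genes were among the most strongly depleted. Of 18 genes, 16 were depleted and 0 were enriched, against 11.4% and 7.72% of all genes, and the median log2 fold change was -2.65 (-2.47 with *Dlx6* at its bound). *Npy*, the neuropeptide Y gene (chr6:49822710-49829507), was at 0.275, 0.658 and 0.266 CPM in the IPs and 8.93, 10.2 and 13.1 CPM in the inputs (26.5-fold lower, FDR 1.38e-07). *Sst*, somatostatin, was at 3.27, 5.76 and 6.99 CPM against 35.8, 71.6 and 44.5 CPM (9.47-fold lower, FDR 1.44e-06). *Pvalb*, parvalbumin, was at 0.748, 0.387 and 0.0760 CPM against 5.13, 4.48 and 5.20 CPM (12.2-fold lower, FDR 4.57e-05). None of these groups overlapped. *Dlx6*, a homeobox factor of the interneuron lineage, had 0 reads in every IP and 18, 18 and 10 reads in the inputs, which is at least 4.87-fold lower against a floor of 3 reads per library.

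Of the enzymes of GABA synthesis only *Gad2* was called. It was depleted, at 60.1, 68.8 and 69.4 CPM against 269, 280 and 274 CPM (4.15-fold lower, log2 fold change -2.05, SE 0.12, FDR 2.52e-08). *Gad1*, which encodes the other glutamate decarboxylase, was at 97.0, 103 and 104 CPM against 121, 130 and 119 CPM (log2 fold change -0.28, SE 0.11, FDR 0.0878), and though every IP lay below every input it was not called. *Lamp5*, a marker of neurogliaform interneurons, was the other uncalled member, at 23.4 to 28.6 CPM against 19.7 to 25.7 CPM (log2 fold change 0.20, FDR 0.369). The vesicular GABA transporter *Slc32a1* was depleted (log2 fold change -2.63, FDR 1.21e-06). The summed level of the list was 254 to 315 CPM in the IPs against 737 to 865 CPM in the inputs.

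Glial genes were depleted almost throughout. Of 16 astrocyte genes, 15 were depleted and 0 enriched (median log2 fold change -2.72), of 17 oligodendrocyte lineage genes 15 and 0 (-2.86), and of 15 microglial genes 15 and 0 (-3.42), against 11.4% and 7.72% of all genes. *Fabp7*, a fatty acid binding protein of astrocytes and radial glia, was at 2.75, 5.69 and 4.33 CPM against 72.2, 64.1 and 96.1 CPM (18.2-fold lower, FDR 1.99e-08). *Slc1a2*, the main astrocytic glutamate transporter, was at 1126, 1166 and 1633 CPM against 3875, 4319 and 3788 CPM (3.05-fold lower, FDR 2.18e-06), so it remained abundant in every IP. *Slc4a4*, a bicarbonate transporter, passed the FDR without reaching the fold limit (log2 fold change -0.45, FDR 0.0109). The summed astrocyte level was 1575 CPM in IP 1 and 1711 CPM in IP 2, was highest of the IPs in IP 3, and was 6196 to 6847 CPM in the inputs, without overlap.

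In the oligodendrocyte lineage the myelin genes gave unlike values. *Cldn11*, the claudin of myelin tight junctions, was at 0.157, 0.193 and 0.152 CPM against 3.12, 3.21 and 4.11 CPM (20.2-fold lower, FDR 2.19e-06). *Mbp*, myelin basic protein, was at 143, 172 and 161 CPM against 180, 218 and 192 CPM (log2 fold change -0.31, SE 0.12, FDR 0.0855), without overlap and without a call, and it passed the FDR only with scaling by library size (FDR 0.016). The difference between *Cldn11* and *Mbp* was not tested. *Opalin*, a myelin membrane protein, had 0, 1 and 2 reads against 29, 48 and 35, a ratio of 35.8 (95% interval 11.9 to 176, exact Clopper-Pearson, counting error only). *Cspg4*, a marker of oligodendrocyte precursors and pericytes, was at 6.19 to 8.62 CPM against 5.40 to 7.62 CPM (log2 fold change 0.17, FDR 0.59).

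Microglial transcripts were low in the IPs. With all pools 15 were called depleted, without IP 3 14 were and without input 1 13 were. *Csf1r*, the receptor for colony stimulating factor, was at 2.44, 2.01 and 1.56 CPM against 11.4, 7.45 and 6.53 CPM (4.22-fold lower, FDR 6.31e-05). *Tyrobp*, a microglial signaling adaptor, had 3, 2 and 1 reads against 56, 44 and 37, a ratio of 21.9 (95% interval 9.81 to 60.7). All 15 genes lay lower in every IP than in every input, as did 3525 of the 15011 genes tested. The summed level of the list was 7.68 to 12.8 CPM in the IPs and 48.8 to 82.8 CPM in the inputs.

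Of the glial, vascular and meningeal lists the vascular genes had the highest median, with all pools and without IP 1, and its value moved with that pool. Of 18 endothelial and mural genes, 16 were tested, 2 were depleted, a share close to the 11.4% of all genes, and 0 were enriched, with a median log2 fold change of -0.13. Their summed level was 71.89, 29.97 and 33.06 CPM in the IPs and 75.4, 72.0 and 61.1 CPM in the inputs, so IP 1 lay within the range of the inputs and the other IPs lay below it. Without IP 1 the median was -1.38 and 6 were depleted, whereas the median was 0.01 without IP 2, -0.05 without IP 3 and -0.29 without input 3, each with 2 depleted. It was -0.47 with the replicate block, -0.26 when library size alone was used and -0.29 with at least 10 counts in every library, where 8 were tested. *Rgs5*, a pericyte gene, was at 20.5, 5.42 and 6.92 CPM against 37.2, 32.8 and 26.8 CPM (2.95-fold lower, FDR 0.00555), and *Pdgfrb*, the pericyte receptor for platelet-derived growth factor, was at 2.20, 0.580 and 0.988 CPM against 4.83, 3.69 and 4.65 CPM (3.49-fold lower, FDR 0.00341).

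Progenitor, choroid plexus and meningeal genes gave 16 tested members, of which 5 were depleted. Of 11 progenitor and immature neuron genes 8 were tested, 2 were depleted and 0 enriched, against 11.4% and 7.72% of all genes (median log2 fold change -0.89), and 1 was depleted without IP 2, input 2 or input 3 and 4 when library size alone was used. *Nr2e1*, the nuclear receptor of neural stem cells that astrocytes also express, was at 1.22, 1.47 and 2.24 CPM against 19.9, 27.2 and 23.0 CPM (14.2-fold lower, FDR 4.37e-08). *Tac2*, which encodes a tachykinin peptide, was the other, at 0.271 CPM or less in every IP and 0.646 to 0.939 CPM in the inputs (FDR 0.0358), and its call was lost without IP 1, IP 2, input 1, input 2 or input 3 (FDR 0.0607 to 0.12). *Dcx*, doublecortin of immature neurons, was at 23.1, 30.4 and 35.4 CPM against 43.5, 64.7 and 55.6 CPM (log2 fold change -0.88, FDR 0.00225), short of the fold limit, which it passed without IP 3 (-1.02) or input 1 (-1.01). Of 14 choroid plexus and meningeal genes 8 were tested, 3 were depleted and 0 enriched, against 11.4% and 7.72% of all genes. The depleted were *Igf2* (12.6-fold lower, FDR 2.46e-06), *Ttr* (7.67-fold lower, FDR 0.000314) and *Col1a1* (13.9-fold lower, FDR 0.00626). *Col1a1* had at most 4 reads in an IP and lost its call without both IP 3 and input 2 (FDR 0.0618). The median of the list was -1.09, and -1.53 without IP 1 and -0.76 without input 3.

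**Figure D2:**
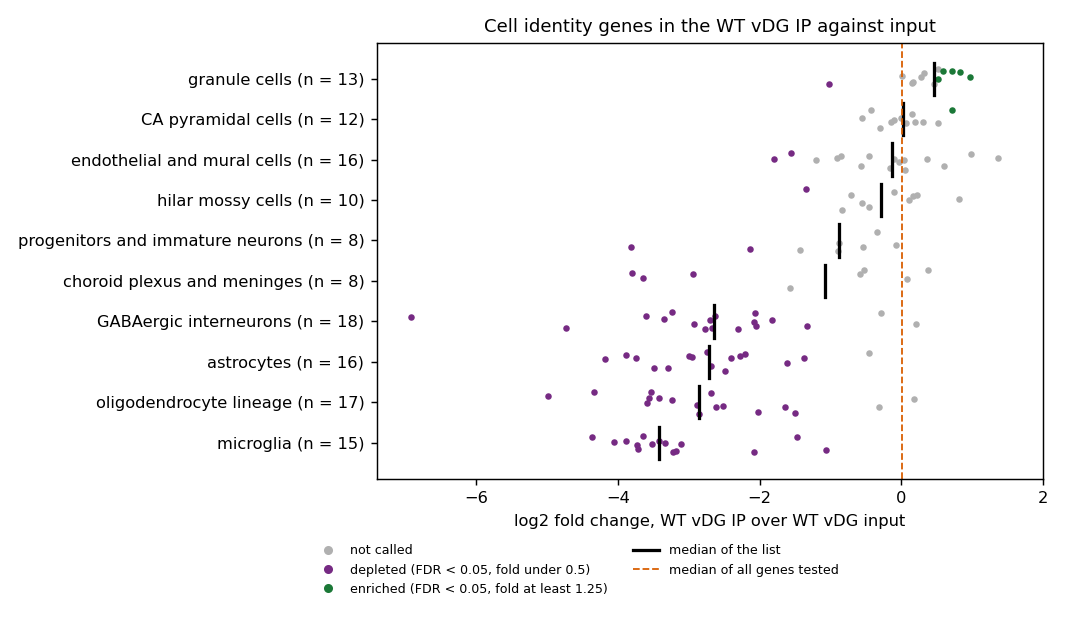
Log2 fold change of the WT vDG IP over input for the tested members of 10 cell identity lists, 1 point per gene, colored by call, with a black bar at the median of each list and a dashed line at the median of all genes tested. Medians run from -3.42 for microglia to 0.46 for granule cells, and the CA pyramidal median of 0.03 turns to -0.11 when library size alone is used for scaling. *Dlx6*, at 0 reads in every IP, is drawn at its fitted value, which is no bound.

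Of 72 potassium channel genes 6 were enriched and 7 depleted, near the 7.72% and 11.4% of all genes (median 0, -0.13 when library size alone was used, and between -0.06 without IP 3 and 0.12 without IP 1 when 1 pool was left out), and the enriched count was 1 without input 1 and 2 without input 3. When library size alone was used 1 was enriched and 8 were depleted. *Kcnj10*, the inward rectifier of astrocytes, was at 5.63, 6.92 and 6.96 CPM against 57.4, 66.2 and 55.2 CPM (9.16-fold lower, FDR 4.8e-09), and *Kcnj16*, its partner in glia, was 13-fold lower (FDR 1.87e-06). *Kcng4*, a modifier subunit, was 6.93-fold lower (FDR 0.00105).

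Of 35 sodium and calcium channel genes tested, 10 were enriched and 4 depleted, against 7.72% and 11.4% of all genes, with a median log2 fold change of 0.18 (0.05 when library size alone was used, where 5 were enriched), and 6 were enriched without input 1 and 5 without input 3. The median was 0.28 without IP 1 and 0.10 without IP 3. With a trend on coding length removed, 4 were enriched and 4 depleted and the median was 0.08, whereas without both IP 3 and input 2 they were 11 and 4 and the median was 0.14. *Cacna1e*, the R-type calcium channel (chr1:154390731-154884501), was at 709, 834 and 895 CPM against 480, 613 and 443 CPM (1.59-fold, FDR 0.0033), and *Cacna1a*, the P/Q-type channel, was 1.73-fold higher (FDR 0.000595). *Cacng4*, an AMPA receptor auxiliary subunit found in glial precursors and interneurons, was at 0.354, 0.155 and 0.190 CPM against 2.17, 2.83 and 1.92 CPM (9.75-fold lower, FDR 0.000118), and *Cacna2d2* was 3.85-fold lower (FDR 4.99e-05). *Cacng7* (2.47-fold lower, FDR 7e-05) and *Scn9a* (2.01-fold lower, FDR 0.00435) were the other 2 depleted members. *Scn9a* lay at the fold limit and lost its call without IP 1 (log2 fold change -0.81), input 1 (-0.92) or input 3 (just above the limit).

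A few glutamate and GABA receptor genes were called, in both directions. Of 25 glutamate receptor genes, 3 (*Grin1*, *Grm7* and *Grm2*) were enriched and 4 (*Grin2c*, *Grik1*, *Grm3* and *Gria4*) were depleted, against 7.72% and 11.4% of all genes, with a median of 0.08 that was 0.13 without IP 1, 0.2 without input 2 and -0.05 when library size alone was used. The call of *Grm7* was lost without input 3 (log2 fold change 0.52), and that of *Gria4*, near the fold limit, without IP 1 (-0.88), IP 2 (-0.95), input 2 (-0.89) or input 3 (-0.98). *Grin1*, the obligatory NMDA receptor subunit, was at 139, 148 and 150 CPM against 69.0, 99.2 and 94.4 CPM (1.66-fold, FDR 0.00172). *Grin2c*, an NMDA receptor subunit of astrocytes and cerebellar granule cells, was at 0.315, 0.387 and 0.608 CPM against 6.54, 5.07 and 4.50 CPM (12.1-fold lower, FDR 2.44e-06), and *Grik1*, a kainate receptor of interneurons, was 8.36-fold lower (FDR 1.33e-05). *Gria2*, the AMPA receptor subunit with the most reads of the list, was at 1027, 1097 and 1367 CPM against 999, 1030 and 1008 CPM (log2 fold change 0.20, FDR 0.269). Of 14 GABA receptor genes, 2 were depleted and 1 was enriched, near the 11.4% and 7.72% of all genes. The depleted were *Gabrg1* (3.77-fold lower, FDR 2.28e-05) and *Gabra3* (2.74-fold lower, FDR 0.000491), and the enriched gene was *Gabbr2* (1.34-fold, FDR 0.033). The call of *Gabbr2* was lost without IP 2 (FDR 0.0515), IP 3 (0.0756), input 1 (0.114) or input 3 (0.116), and the median of the list, 0.06, was 0.17 without IP 1, 0.04 without IP 2, -0.02 without IP 3, 0.004 without input 1, 0.11 without input 2, 0.10 without input 3 and -0.07 when library size alone was used.

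Synaptic structure genes included enriched members on the postsynaptic and the presynaptic side. Of 26 postsynaptic scaffold and kinase genes 8 were enriched and 0 depleted, against 7.72% and 11.4% of all genes (median 0.27, and 0.14 when library size alone was used), and 5 were enriched without input 1, while 1 was depleted without input 3 or when library size alone was used. *Baiap2*, which links Rac to the actin cytoskeleton of spines, was at 419, 347 and 380 CPM against 215, 253 and 227 CPM (1.65-fold, FDR 0.000648). *Camk2a*, the calcium-dependent kinase of excitatory synapses, was at 3662, 3827 and 4399 CPM against 2590, 3860 and 2545 CPM (log2 fold change 0.40, FDR 0.077), where input 2 lay among the IPs, and without input 2 it passed (FDR 0.0037). Of 30 presynaptic genes 7 were enriched and 0 depleted, against 7.72% and 11.4% of all genes (median 0.18, and 0.05 when library size alone was used). Without input 1 2 were enriched, and without IP 3 the median was 0.05, with 9 enriched and 1 depleted. *Unc13a*, a vesicle priming factor, was at 277, 298 and 373 CPM against 157, 198 and 162 CPM (1.83-fold, FDR 0.000458), and *Slc17a7*, the vesicular glutamate transporter of granule cells, was at 611, 696 and 704 CPM against 393, 517 and 501 CPM (1.42-fold, FDR 0.0105), a call lost without input 1 (log2 fold change 0.41). *Snap25* was at 8292 to 12610 CPM against 8549 to 10140 CPM, and the groups overlapped.

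Of 127 listed adhesion and guidance genes 115 were tested, 13 were enriched and 9 depleted, beside 7.72% and 11.4% of all genes, with a median of 0.14 (0.07 without IP 3 or input 1, and 0.01 when library size alone was used), and 4 were enriched without input 1 and 6 without input 3. With a trend on coding length removed, 6 were enriched and 10 depleted. Among the enriched were *Tenm2*, a teneurin (1.97-fold, FDR 0.0053), at 319, 482 and 642 CPM against 186, 313 and 233 CPM, and *Slit1*, a guidance ligand (1.87-fold, FDR 7.6e-05), at 120, 125 and 138 CPM against 64.5, 70.5 and 69.9 CPM. *Plxnb1*, a semaphorin receptor, was depleted at 5.23, 5.72 and 7.79 CPM against 24.5, 32.9 and 25.9 CPM (4.44-fold lower, FDR 1.66e-06), and so were the cadherins *Cdh20* (6.55-fold lower, FDR 7.59e-06) and *Cdh19* (3.93-fold lower, FDR 0.00879), the latter not without input 1 (FDR 0.0939).

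Of 23 neuropeptide, growth factor and granin genes 8 were depleted and 0 enriched, against 11.4% and 7.72% of all genes, with a median of -0.18. The median was -0.04 without IP 1, -0.28 without IP 3, -0.09 without input 2 or input 3 and -0.31 when library size alone was used, and it turned to 0.06, with 4 depleted, when at least 10 counts were required in every library. The depleted were *Npy*, *Sst*, *Vip*, *Tac1* and *Cort*, peptides known from interneurons, *Tac2*, which also stands in the progenitor and immature neuron list and whose call was lost without any 1 pool other than IP 3, and the growth factors *Igf1* (10.9-fold lower, FDR 5.41e-07) and *Fgf1*. The call of *Cort* was lost without both IP 3 and input 2 (log2 fold change -1.79). *Bdnf* (log2 fold change 0.18), *Penk* (0.34), *Pdyn* (0.34) and *Cck* (0.40) were not called. *Chgb*, a granin, was at 508, 507 and 896 CPM against 672, 695 and 491 CPM (log2 fold change 0.04, FDR 0.908), and its sign turned under 7 alternatives.

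Of 16 immediate early genes 3 were enriched and 0 depleted, against 7.72% and 11.4% of all genes, and 1 was enriched without IP 2 or input 1. Their median was 0.22, and 0.06 without IP 1, 0.085 without input 1 and 0.09 when library size alone was used. The enriched genes were *Nr4a3* (1.4-fold, FDR 0.00871), *Jun* (1.29-fold, FDR 0.0302) and *Junb* (1.7-fold, FDR 0.0353). For *Junb* the groups overlapped and the call was lost without IP 1 (FDR 0.125), IP 2 (0.0929), input 1 (0.133) or input 2 (0.0968), and that of *Jun* was lost without IP 2 (0.0851), input 1 (0.108) or input 3 (0.0787). *Fos*, *Egr1* and *Arc* were not called. Of 30 forebrain transcription factor genes 1 was enriched and 5 depleted, against 7.72% and 11.4% of all genes (median -0.04, between -0.08 and 0.04 without 1 pool at a time, above 0 only without input 2, and -0.17 when library size alone was used): *Tbr1*, a factor of glutamatergic neurons, rose 1.56-fold (FDR 0.00164), while *Npas3* (3.59-fold lower, FDR 2.31e-05), *Meis2* (2.76-fold lower, FDR 0.00215), *Sox5* (2.66-fold lower, FDR 0.00018), *Rora* and *Id2* were depleted. *Rora* fell short of the fold limit without IP 2 (log2 fold change -0.999), and *Id2* without IP 3 (-0.84) or input 1 (-0.94). Of 339 zinc finger genes 14 were enriched and 8 depleted, shares below those of all genes, with a median of -0.01, and without input 1 they were 4 and 5, and 7 were enriched without input 3. When library size alone was used 4 were enriched and 11 depleted and the median was -0.15. With all 4 vDG groups in the fit 22 were enriched. *Zfp488*, a factor of oligodendrocytes, was at 0.619 to 0.760 CPM against 4.19 to 7.31 CPM (7.57-fold lower, FDR 1.33e-05).

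Nuclear genes of mitochondrial energy metabolism lay slightly higher in the IP, and the number called moved with single pools and with the method. Of 77 oxidative phosphorylation genes 76 had a log2 fold change above 0 and the median was 0.36 (0.22 when library size alone was used), and 9 were enriched and 1 was depleted, against 7.72% and 11.4% of all genes. Their summed level was 10710, 9300 and 8255 CPM in the IPs and 7883, 7111 and 8107 CPM in the inputs, so every IP lay above every input and IP 3 lay nearest to them. The median was 0.54 without IP 3 and 0.24 without IP 1. Without IP 3 the enriched count was 57, without both IP 3 and input 2 it was 36, and without any 1 of the other pools it was 3 to 10, with 3 without IP 1, 4 without IP 2 and 3 without input 2. It was 27 with DESeq2, 16 with DESeq2 size factors, 38 without a count filter, 31 with all 4 vDG groups in the fit, 3 with at least 10 counts in every library, 4 with a trend on coding length removed and 2 when library size alone was used. *Ndufb6*, a subunit of complex I, was at 64.3, 58.3 and 43.9 CPM against 36.2, 21.4 and 36.3 CPM (1.77-fold, FDR 0.00724), and *Cox6a2*, the muscle-type subunit that parvalbumin interneurons also express, was the depleted gene (5.29-fold lower, FDR 0.0152, and not called without input 2, FDR 0.0508, or input 3, FDR 0.0543). *Atp5b* overlapped (log2 fold change 0.10, FDR 0.574). No feature of the mitochondrial genome was among the features counted.

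The fold changes of mitochondrial ribosomal protein and proteasome genes lay mostly above 0, and the number called moved with single pools and with the method. Of 76 mitochondrial ribosomal protein genes 71 had a log2 fold change above 0 (median 0.26, and 0.13 when library size alone was used) and 6 were enriched, a share close to the 7.72% of all genes. The enriched count was 30 without IP 3, 12 without both IP 3 and input 2, 1 or 2 without IP 1, IP 2, input 1 or input 2, 12 with DESeq2, 14 without a count filter and 16 with all 4 vDG groups in the fit. It was 1 when library size alone was used and 1 with at least 10 counts in every library. Of 80 cytosolic ribosomal protein genes 2 were enriched (*Rpl27* and *Rpl34*, both with overlapping groups), with a median of 0.03 that turned to -0.10 when library size alone was used, against 7.72% and 11.4% of all genes called. The median was -0.07 without IP 1, -0.04 without IP 2, 0.23 without IP 3, 0.09 without input 1, -0.004 without input 2 and 0.07 without input 3. Without IP 3 20 were enriched, without both IP 3 and input 2 11 were, and without IP 1, IP 2, input 1 or input 2 none were. Their summed level was 9040, 8786 and 6070 CPM in the IPs and 8166, 7400 and 8236 CPM in the inputs. Of 38 proteasome genes 37 had a log2 fold change above 0, and 2 were enriched and 0 depleted, against 7.72% and 11.4% of all genes. The enriched were *Psmd3* (1.51-fold, FDR 0.00311) and *Psmb2* (1.34-fold, FDR 0.0377). The enriched count was 15 without IP 3, 6 without both IP 3 and input 2 and 1 without each of IP 1, IP 2, input 1 and input 2. The median of the list was 0.24 (0.15 without IP 1 and 0.10 when library size alone was used). The call of *Psmb2* was lost without IP 1 (log2 fold change 0.31), IP 2 (0.44), input 1 (0.40) or input 2 (0.39). Of 63 translation factor genes 8 were enriched and 1 depleted, against 7.72% and 11.4% of all genes, with a median of 0.11 that was 0.06 without IP 1, 0.04 without input 2 and -0.03 when library size alone was used, and 2 to 5 were enriched without any 1 pool other than IP 3. When library size alone was used 2 were enriched, and 4 were with the replicate block. *Eif4g1*, the scaffold of the cap-binding complex, was at 174, 173 and 225 CPM against 105, 122 and 95.1 CPM (1.77-fold, FDR 0.000694), and *Eif2ak2*, the kinase activated by double-stranded RNA, was the depleted gene (2.05-fold lower, FDR 0.0024, and not past the fold limit without IP 2, log2 fold change -0.98). Of 23 genes of the endoplasmic reticulum and secretory pathway 0 were called by edgeR (1 by DESeq2, and 3 enriched by edgeR without IP 3), although 5 had an unadjusted p under 0.05, among them *Tram1*, whose FDR of 0.0089 came with a log2 fold change of -0.59.

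Histone genes had a median of 0.42 (0.29 when library size alone was used, and 0.32 without IP 2). Of 80 listed genes 41 were tested, 8 were enriched and 1 was depleted, against 7.72% and 11.4% of all genes, and 2 were enriched without IP 2, input 1 or input 2 and 5 without IP 1. *H2afz*, a replacement histone, was at 252, 259 and 291 CPM against 157, 179 and 218 CPM (1.45-fold, FDR 0.0107, and 0.0621 without input 1). *Hist2h2be*, a polyadenylated histone of differentiated cells, was depleted at 10.0, 10.7 and 12.4 CPM against 31.8, 29.4 and 30.8 CPM (2.77-fold lower, FDR 5.36e-06). Reads of near-identical histone copies may have been split between them.

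Long noncoding RNAs were among the deepest depletions. *Malat1*, a nuclear long noncoding RNA (chr19:5795690-5802672), was at 429, 222 and 231 CPM in the IPs and 9666, 12260 and 9452 CPM in the inputs (35.6-fold lower, log2 fold change -5.15, SE 0.25, FDR 4.8e-09). Of 17 long noncoding RNA genes 10 were depleted and 0 enriched, against 11.4% and 7.72% of all genes, with a median of -1.71. *Meg3*, from an imprinted cluster, was at 57.3, 36.8 and 41.5 CPM against 988, 522 and 330 CPM (13.6-fold lower, FDR 1.17e-06), *Miat* was 14.1-fold lower (FDR 2.33e-07) and *Rmst* was 24.5-fold lower (FDR 4.76e-05). *Xist*, the RNA of the inactive X chromosome, did not follow them, at 19, 4.25 and 3.69 CPM against 11.7, 9.28 and 6.45 CPM (log2 fold change -0.03, FDR 0.973), and its IPs spanned the inputs. Without IP 1 it was called depleted (log2 fold change -1.20).

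Several classes of features without a protein-coding annotation were depleted more often than protein-coding genes. Of 1013 tested features named by a GenBank clone 387 (38.2%) were depleted and 15 were enriched, and 9 of the 12 most depleted features with at least 5 CPM carry such names. The deepest was AK140265, at 156, 155 and 138 CPM in the IPs and 21630, 14990 and 12990 CPM in the inputs (111-fold lower, FDR 4.57e-11). Of 185 lincRNA genes 50 were depleted and of 153 antisense genes 41, with 0 enriched in both, while of 13001 protein-coding genes 1136 (8.74%) were depleted and 1114 (8.57%) enriched. The small classes of 26 bidirectional promoter noncoding RNAs (7.69% depleted) and 24 processed pseudogenes (8.33%) were near the protein-coding share. The clone-named features are given by the names in the deposited files, and for 985 of them GENCODE M21 holds no gene of that name, so no position or function is given.

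Of 1227 microRNA and small nucleolar RNA features 23 passed the count filter, 7 were depleted and 0 enriched, against 11.4% and 7.72% of all genes (median -0.55). Without IP 3 the median was -0.32 with 8 depleted and 2 enriched, and without input 3 it was -0.40 with 7 depleted and 1 enriched. *Mir6236* was called enriched without IP 3 (log2 fold change 0.80) or without input 3 (0.84), and with all pools it was not (0.53, FDR 0.162). With at least 10 counts in every library 13 features were tested, 2 were depleted and the median was -0.23. Reads over these features are no measure of the mature small RNAs. Of the 7, 3 are microRNA hairpins, 2 are small nucleolar RNAs and 2 are the host genes *Mir124a-1hg* (17.9-fold lower, FDR 3.09e-09) and *Mir99ahg*. The mature sequences (RefSeq, GRCm38.p6) are shown because they identify these 3 hairpins, with the seed, bases 2 to 8, in capitals:
mmu-miR-103-2-5p: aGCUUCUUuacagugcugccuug
mmu-miR-103-3p: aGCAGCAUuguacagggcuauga
mmu-miR-186-5p: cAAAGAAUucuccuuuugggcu
mmu-miR-186-3p: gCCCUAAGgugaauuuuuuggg
mmu-miR-378b: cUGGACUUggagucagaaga
No seed was shared among these 5 sequences. *Mir103-2* (chr2:131288052-131288137, plus strand, in an intron of *Pank2*) had 0 reads in every IP and 12, 21 and 14 reads in the inputs, at least 4.96-fold lower, while *Pank2*, pantothenate kinase, did not differ beyond its spread (log2 fold change 0.11, SE 0.14, FDR 0.62).

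Of the other small RNA features, *Mir186*, *Snora31* and *Snord4a* lay in same-strand host genes that were not called. *Mir378b* and *Snord4a* also overlapped depleted genes on the opposite strand. *Mir186* (chr3:157544279-157544349, plus strand) was at 0.0787, 0.0774 and 0.152 CPM against 0.988, 0.586 and 0.665 CPM (6.96-fold lower, FDR 0.00394), and its host *Zranb2*, a splicing factor, had a log2 fold change of -0.01 (FDR 0.953). *Snora31* had 1, 1 and 0 reads against 31, 19 and 11, a ratio of 29.3 (95% interval 7.76 to 247), while its host *Tpt1* had a log2 fold change of 0.08 (FDR 0.702). *Snord4a*, inside *Rpl23a* (log2 fold change -0.18, FDR 0.593), had 0, 2 and 0 reads against 19, 28 and 22, a ratio of 33.1 (95% interval 8.82 to 279), but it also overlaps an exon of *Tlcd1* on the opposite strand, which was itself depleted (log2 fold change -3.68). *Mir378b* had 0 reads in every IP and 24, 14 and 11 in the inputs, at least 5.24-fold lower, and it lies in an intron of *Msi2* on the opposite strand, where *Msi2*, an RNA-binding protein of progenitors and glia, was depleted too (log2 fold change -1.60, FDR 5.41e-07). The kits are not described as keeping strand and counting used the default settings of HTSeq, so which strand the counts hold is not settled, and reads from opposite strands cannot be told apart.

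**Figure D3:**
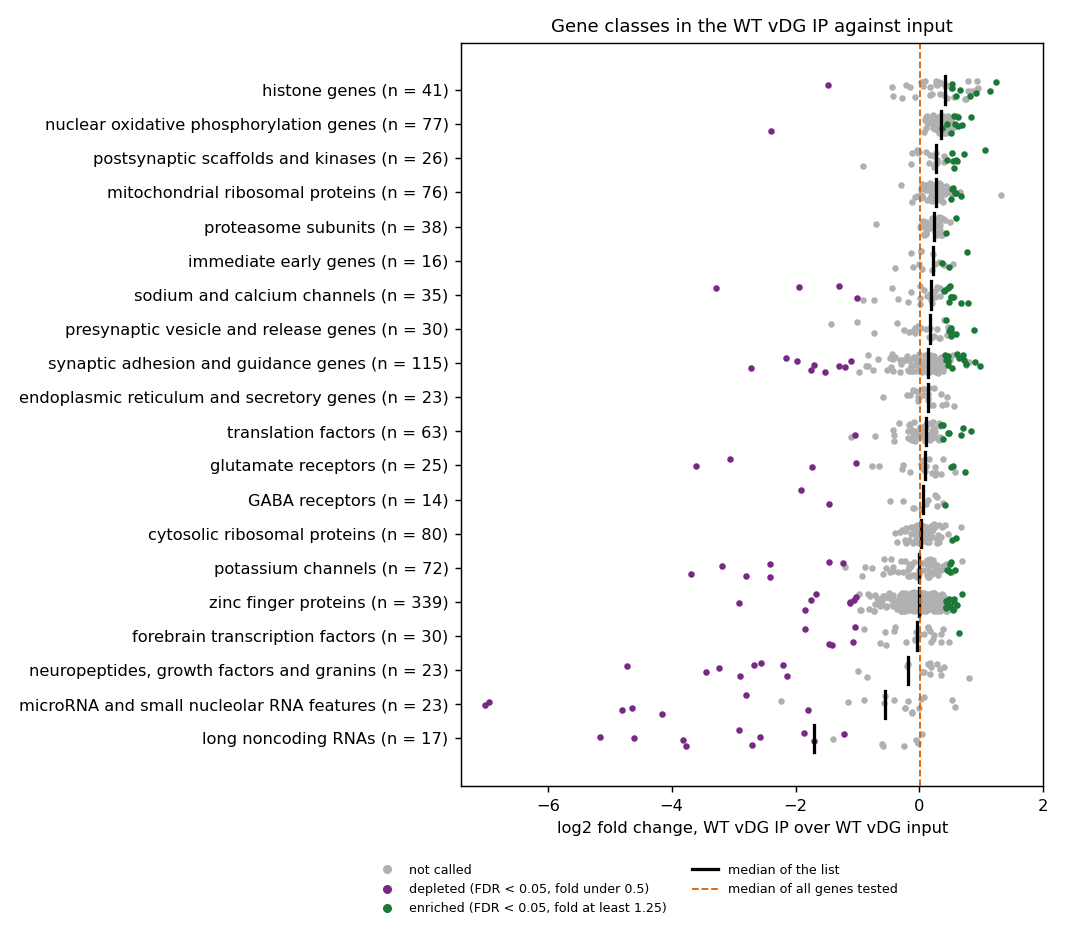
Log2 fold change of the WT vDG IP over input for the tested members of 20 gene classes, 1 point per gene, colored by call, with a black bar at the median of each class and a dashed line at the median of all genes tested. Medians run from -1.71 for long noncoding RNAs to 0.42 for histone genes, and those of potassium channels, glutamate receptors, GABA receptors, cytosolic ribosomal proteins and translation factors turn below 0 when library size alone is used for scaling. Genes at 0 reads in every IP are drawn at fitted values, which are no bounds.

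Enrichment was most frequent among genes with long coding sequences. The protein-coding genes with a coding length were split into 5 equal groups from the shortest (up to 783 bases) to the longest (2607 bases and over), and the share enriched was 3.54%, 2.73%, 4.73%, 9.73% and 22.1%. Enriched protein-coding genes had a median coding length of 2685 bases, against 1440 bases for all tested and 1290 bases for depleted ones. The enriched genes also had more reads, with a median of 97.4 CPM in the higher group against 21.6 CPM for all and 4.22 CPM for the depleted. Among genes with at least 20 CPM the shares of the shortest and longest group were 5.82% and 33.6%. The share enriched was also higher with higher GC content, from 6.17% to 11.4% over 5 equal groups, while over 5 groups by 3′ UTR length it ranged from 6.92% to 10.1%. The median log2 fold change was 0.04 in the shortest and 0.17 in the longest group.

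Coding length also separated the pools within each group. For each library the median deviation from the gene means (log2) was taken over the more abundant genes, 1915 in the longest and 1772 in the shortest group. The longest group minus the shortest was -0.13, -0.01 and 0.36 in the IPs and -0.17, 0.15 and -0.21 in the inputs, so IP 3 and input 2 leaned toward long coding sequences. Without IP 3 the shares enriched were 15.2% in the shortest group and 18.7% in the longest, and the median log2 fold changes of both groups were 0.12. The share of the longest group was 12.4% without input 1 and 13.2% without input 3, with 1.46% and 3.65% in the shortest. Without both IP 3 and input 2 the shares of the shortest and the longest group were 8.10% and 20.5%. After a trend of the IP-over-input fold change on coding length was removed, the shares were 2.65% and 10.9%. That removal acted on the contrast of the groups and left differences between pools of a group in place. With this trend removed, 6 adhesion and guidance, 4 sodium and calcium channel, 7 zinc finger and 4 oxidative phosphorylation genes were enriched, against 13, 10, 14 and 9 without its removal and 12, 11, 9 and 36 without both IP 3 and input 2, whereas the interneuron, astrocyte, oligodendrocyte lineage and microglial lists had 16, 15, 15 and 15 depleted members with and without it.

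**Figure D4:**
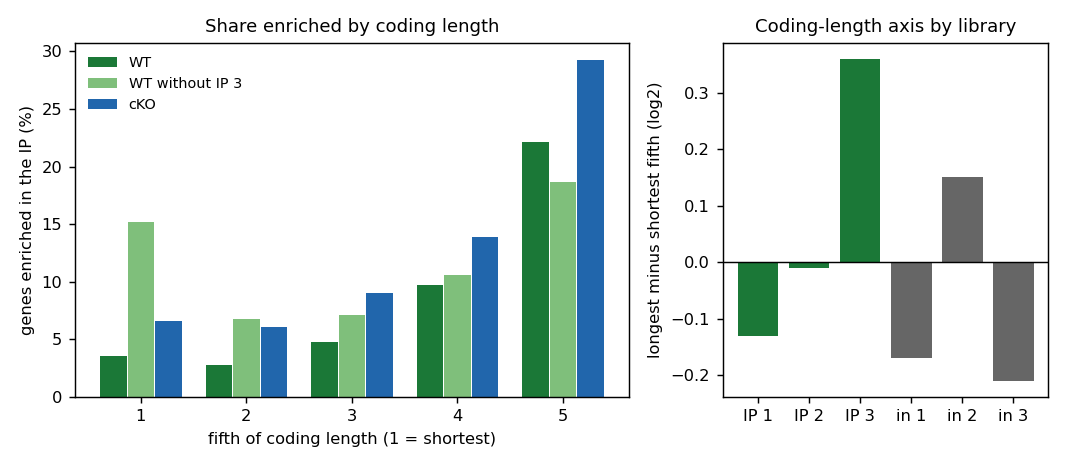
Left, share of genes enriched in the IP (%) by group of coding length for the WT libraries, the WT libraries without IP 3 and the cKO libraries. Right, median log2 deviation of the longest minus that of the shortest group in each WT library, over the more abundant genes. The longest group holds the largest share in all 3 settings (22.1%, 18.7% and 29.3%), the shortest group rises to 15.2% without IP 3, and IP 3 has the highest bar on the right at 0.36.

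The cKO libraries, none of which entered the WT comparison, were set beside it gene by gene. Of 15126 genes tested in 2 cKO IPs against 2 cKO inputs, 1719 were enriched (11.4%) and 1624 depleted (10.7%). Of 1157 genes enriched in WT and tested in both, 1151 had a log2 fold change above 0 in cKO, and of 1634 genes depleted in WT 1621 had one below 0, whereas among 11922 genes not called in WT 5953 lay above 0. The identity lists had cKO medians of 0.59 for granule cells (9 of 13 enriched), -0.80 for mossy cells, 0.24 for CA pyramidal cells, -2.60 for interneurons, -2.71 for astrocytes, -2.47 for the oligodendrocyte lineage and -2.43 for microglia. The vascular median was -0.17. Cytosolic ribosomal proteins had a cKO median of -0.08, and oxidative phosphorylation genes had one of 0.24 with 16 of 77 enriched. The shares enriched in the shortest and the longest coding group were 6.57% and 29.3%. The difference between the genotypes was not tested here.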

How the data were processed

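RNA was taken from ventral dentate gyrus pools before and after immunoprecipitation of EGFP-tagged ribosomes, amplified with the NuGEN Ovation system and sequenced as paired-end TruSeq libraries. The authors trimmed reads and aligned them to mm10 with STAR 2.4.2a, removed duplicates with SAMtools 0.1.19-444, and counted reads per gene with HTSeq in union mode at default settings. The deposited values are these raw counts per feature, with no normalization. FastQC 0.11.4 and DESeq2 1.4.5 also stand in the submitters' processing notes. Duplicate removal can lower the counts of abundant genes, and amplification can change the yield of long or GC-rich RNAs. The kits are not described as keeping strand and the strand setting of the counting is not settled, so overlapping and antisense genes cannot be told apart.

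Lines of the count files that name no gene were left out of totals and tests: reads in no feature (11.3% to 16.0% per library), in more than 1 feature (2.55% to 7.90%) and not aligned uniquely (9.28% to 13.2%). Genes were kept with filterByExpr of edgeR 4.0.16 (R 4.3.3, limma 3.58.1), scaled by TMM and tested with the two-sided quasi-likelihood F test on the 6 WT libraries, with Benjamini-Hochberg adjustment over all 15011 genes. An exact permutation test of 3 against 3 cannot go below p = 0.1, so none was used for single genes. Positions and biotypes came from GENCODE M21, which matched 13605 of the genes tested. Tables and plots were made in Python 3.11.15 with pandas 2.3.3, numpy 2.4.6 and matplotlib 3.10.9. Scripts were tested on simulated data. The alternatives were DESeq2 1.42.0, other scalings, filters and thresholds, a fit of all 4 vDG groups, the replicate block, removal of a length trend (loess, span 0.5) and leaving out each library. Intervals and floors (3 counts) cover counting error only.

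The comparison and the gene lists were chosen with earlier results of these data known. The genes named were, by rule, the 12 with the highest and the 12 with the lowest fold among called genes with at least 5 CPM in the higher group and no overlap between groups, up to 3 called genes and the most abundant gene of each list, and *Rpl10a*, *Drd3* and *Htr4*, of which a few are not reported here. A further 48 were named after their values were seen: *Arc*, *Bdnf*, *C1ql2*, *Cacna1a*, *Cck*, *Cort*, *Cspg4*, *Dcx*, *Drd2*, *Dsp*, *Egr1*, *Fgf1*, *Fos*, *Gad1*, *Gria4*, *Grin1*, *Grm2*, *Grm7*, *Id2*, *Lamp5*, *Meg3*, *Mir124a-1hg*, *Mir186*, *Mir99ahg*, *Msi2*, *Pank2*, *Pdyn*, *Penk*, *Prox1*, *Rn45s*, *Rora*, *Rpl23a*, *Scn9a*, *Slc17a7*, *Slc32a1*, *Slc4a4*, *Slit1*, *Snora31*, *Tac1*, *Tbr1*, *Tenm2*, *Tlcd1*, *Tpt1*, *Tram1*, *Vip*, *Wfs1*, *Xist* and *Zranb2*. Files holding the authors' own fold changes and p-values, and the dorsal libraries, were not used here. A check of start sequences of ribosomal protein genes was void, because 59 of 80 (73.8%) had a sequence and 80% were needed.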

Additional observations from a re-analysis of the deposited data

How the results depend on the processing

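The counts of 1159 enriched and 1711 depleted genes were 1514 and 1675 with DESeq2, 1271 and 1685 with DESeq2 size factors, 487 and 1917 with library size alone, 1623 and 2155 without a count filter, 755 and 927 with at least 10 counts in every library, 1696 and 1914 with all 4 vDG groups in the fit, 428 and 1340 at an FDR of 0.01, and 29 and 1711 with a 2-fold limit in both directions. Without 1 library at a time they ranged from 588 to 1584 and from 1426 to 1862. Chosen after seeing the data, removal of a trend on coding length gave 842 and 1732, and leaving out IP 3 and input 2 together gave 1221 and 1581. The cause of these differences was not tested, except that a stricter FDR or fold admits fewer genes by construction.

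With the replicate number as a block the counts were 1018 and 1657, and 981 and 1666 with the length trend removed in the same fit (1109 and 1717 without the block). Whether the numbers pair the pools is not settled. Over 9428 genes the deviations of same-numbered IP and input correlated at 0.47, -0.16 and -0.33, and IP 2 and IP 3 correlated best with inputs 3 and 2 (0.27 and 0.62). IP 3 and input 2 were also the pools that leaned toward long coding sequences. With 3 libraries per group such correlations cannot show which pools share tissue.

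Among the named genes, reversals of sign touched only those that were not called. With library size alone the log2 fold change was -0.06 for *Kl*, -0.093 for *Chgb*, -0.027 for *Atp5b*, -0.029 for *Psmc5* and -0.125 for *Drd3*. With at least 10 counts in every library it was -0.006 for *Chgb* and -0.033 for *Drd3*. *Zfp871* turned to 0.016 with DESeq2 and with its size factors, 0.022 without a filter, 0.021 with 4 groups and 0.001 with the replicate block, *Chgb* to -0.004 with the block and -0.005 with block and length trend, and *Drd3* to -0.018 with the length trend removed and -0.016 with block and length trend. With the coding length trend removed *Kl* was at -0.013. Without IP 3 and input 2 the values were -0.2 for *Chgb*, 0.012 for *Zfp871*, -0.501 for *Drd3* and 0.021 for *Htr4*. Without 1 library at a time the ranges were -0.292 to 0.038 for *Calb2*, -0.03 to 0.203 for *Kl*, -0.276 to 0.192 for *Chgb*, -0.105 to 0.013 for *Rfx3*, -0.091 to 0.084 for *Zfp871*, -0.012 to 0.238 for *Psmc5*, -0.163 to 0.036 for *Hsp90b1*, -0.316 to 0.367 for *Drd3* and -0.173 to 0.043 for *Htr4*.

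At this depth a gene with few counts in every library, such as *Drd3*, had a standard error too wide for a 25% difference to be called.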
